A study of Mus musculus with 12 samples.

Results

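The 10 genes described here make up much of the microRNA processing and silencing machinery. These genes were compared between naive and germinal center (GC) B cells, in WT mice and in mice whose B cells lack miR-146a. They were chosen by name from 24063 gene symbols in the table. They are Drosha and Dgcr8, which cut the primary transcript in the nucleus, Xpo5, which carries the precursor out, Dicer1 and its partner Tarbp2, which cut it again, the Argonautes Ago1, Ago2 and Ago3, and the GW182 adaptors Tnrc6a and Tnrc6b. All 10 passed the filter on low values that left 13704 genes for testing. Where a symbol had several transcripts, the one with the highest mean over all libraries stood for the gene.

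RNA was sequenced in 12 libraries of sorted spleen B cells from C57BL/6 mice of 8 to 10 weeks, 3 libraries in each of 4 groups. Naive B cells were B220+ cells of unimmunized mice, and GC B cells were B220+PNA+GL7+ cells taken on day 14 after immunization with sheep red blood cells (SRBCs). Cell type thus goes with immunization and with the sort gate, and their effects cannot be told apart. B-KO mice carried miR-146a fl/fl and CD21-cre, a transgene that acts in mature B cells, and the WT mice were littermates whose own cre and flox status is not given in the sources used here. The study described the 3 libraries of a group as biological replicates. Values are RPKM, reads per kilobase of transcript, which can be compared between genes per length. They were computed with the reads of each library scaled to sum to 10000000 over all transcripts. That total is larger than the one in the usual definition of RPKM. All RPKM given here, and the filter on low values, are therefore on a higher scale than usual. In naive WT replicate 1, with 30494141 reads summed over transcripts, 1 read on 1 kilobase gives a value of 0.328.

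A microRNA starts as a hairpin in a longer nuclear transcript. Drosha and its RNA-binding partner Dgcr8 release the hairpin, exportin-5 brings it to the cytoplasm, and Dicer with an RNA-binding partner trims it to a short duplex. An Argonaute protein keeps 1 strand as a guide, and a GW182 protein bound to the Argonaute recruits the enzymes that shorten the poly(A) tail and remove the cap of the target mRNA. B cells without Dicer or Dgcr8 are known to be blocked early in their development, and GC B cells divide rapidly while they diversify their antibody genes.

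The deleted microRNA and its paralog are shown first, since they set the sequence that a direct target would carry. In both, the capitals mark the seed, bases 2 to 8, and the 2 seeds are the same. The sequences are from RefSeq on GRCm38.p6, where mmu-miR-146a-5p lies at chr11:43374435-43374456 on the minus strand and mmu-miR-146b-5p at chr19:46342790-46342811 on the plus strand.
mmu-miR-146a-5p: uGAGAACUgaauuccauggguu
mmu-miR-146b-5p: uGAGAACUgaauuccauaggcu

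The 3′ UTRs of the 10 members were searched for AGTTCTC, the match to the seed, and for GTTCTC followed by A, the shorter match. Both are spelled on the strand of the mRNA. Of the members, 5 held at least 1 match, and all of them act in silencing, while no match was found in the UTRs of Drosha, Dgcr8, Xpo5, Dicer1 or Tarbp2. Ago1 and Tnrc6b each held a seed match followed by A. Ago2 held 1 seed match without it. The sites are printed with the match in capitals, on GRCm38 and 5′ to 3′ along the mRNA, because the B-KO comparison bears on them.
Ago1, chr4:126436025-126436052: actgttctagaaatctAGTTCTCAactg
Ago2, chr15:73102361-73102388: tcaacactctgacaagaAGTTCTCcctc
Ago3, chr4:126340081-126340108: ttttaaaaagcaaggtgGTTCTCAgaaa
Tnrc6a, chr7:123193383-123193410: gatgtttactcaagggtGTTCTCAaggc
Tnrc6a, chr7:123193847-123193874: ctaaatcaaagagcatgGTTCTCAggaa
Tnrc6b, chr15:80930729-80930756: ttcaattacttctatcAGTTCTCAttat
Tnrc6b, chr15:80931107-80931134: aaaaacatcaatgtagtAGTTCTCtggg
Tnrc6b, chr15:80931796-80931823: tgttcctgcaacaccttGTTCTCAtgga
Tnrc6b, chr15:80935009-80935036: tccagtatcagcaggatGTTCTCAgcag

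Such matches are common. Of 11802 tested genes with an annotated 3′ UTR, 12.1% held the match to bases 2 to 8 and 19.8% held either match, against 3 and 5 of the 10 members. The members' UTRs were longer, with a median of 3098 bases against 1093, and a longer UTR holds more matches. Those of Ago2, Ago3 and Tnrc6b span 11064, 12742 and 11609 bases, and those of Ago1 and Tnrc6a 4491 and 2345. In the members without a match they span 169 (Drosha), 334 (Tarbp2), 1327 (Xpo5), 1574 (Dgcr8) and 3851 (Dicer1) bases. The split between silencing and processing members thus largely goes with UTR length. The Ago3 site lies beyond the end of the Ago3 transcript in which reads were counted. A match is a description of the letters and not evidence of a site in use.

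The labelled cell types carried their markers. The 6 pan-B genes, Pax5 among them, were measured in every library, the 7 measured naive B cell markers were lower in GC B cells of both genotypes, and the 8 GC markers, Bcl6 among them, were higher. Reads summed over transcripts ranged from 22945634 to 39118224 per library, and the members drew 175 to 9736 reads each in a library. Reads that fall in several transcripts of a gene can count more than once in the sums, which are thus not counts of distinct reads. The row for the miR-146a hairpin held 0 to 4 reads per library in these poly-A libraries, so it does not check the genotype. Some libraries stood nearer to the other cell type. Summed RPKM of the GC markers was 1497 in naive B-KO replicate 1 against 290 to 521 in the naive WT libraries, and the naive gate, B220 alone, does not remove GC B cells. Within the GC groups, WT replicate 3 and B-KO replicate 2 had the lowest sums of 20 cell cycle genes, 10336 and 11357 against 14875 to 16887 in the others, and the highest sums of naive markers. Marker sums of other cells also moved with the groups. The 9 myeloid genes summed to 82.3 to 441 in naive and 280 to 778 in GC libraries, the 4 plasma cell genes to 485 to 4050 and 3370 to 5742, and 5 stromal genes to at most 1.35. The erythroid and platelet genes separated the cell types, at 831 to 2432 in naive and 113 to 748 in GC libraries, with 5 of 9 called lower in GC B cells of both genotypes. In that list Hbb-bs and Hbb-b1 had near-equal maxima (647 and 649 RPKM), and Hbb-bt and Hbb-b2 the same one (188). Its sums and counts, here and below, can thus include the same beta-globin reads more than once. The part of these other cells in the results was not tested.

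The steps of the pathway moved in different directions between naive and GC B cells. In WT mice, Drosha, Dgcr8 and Tarbp2 rose and Xpo5, Dicer1, Ago1, Tnrc6a and Tnrc6b fell, while Ago2 and Ago3 did not pass the test. The B-KO mice gave the same 3 higher and 5 lower genes. The counted transcripts of Tarbp2, Dgcr8 and Drosha, which rose, span 1508, 4209 and 4530 bases. Those of Xpo5, Ago1, Tnrc6a, Dicer1 and Tnrc6b, which fell, span 3675, 7044, 8453, 9822 and 17101. Those of Ago3 and Ago2 span 7614 and 8010. Any part of transcript length in the directions was not tested. Calls are limma tests on log2(RPKM + 1) with Benjamini-Hochberg adjusted p under 0.05 over all 13704 genes, and fold changes are on that scale. Most of the transcriptome differed in this comparison, which is the background for these counts. In WT mice 31.7% of genes were called higher and 30.2% lower, 62% in all. In B-KO mice the shares were 30% and 27.5%, 57.5% in all. The median log2 change was -0.22 over the members and 0.0054 over all genes tested in WT mice, and -0.36 and 0.015 in B-KO mice. In bulk samples, fewer cells of a type and less RNA per cell cannot be told apart. The means of the WT and B-KO comparisons share no library. Both tests, however, took their spread from the same fit of all 12 libraries, so their p-values are not independent.

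**Figure D1:**
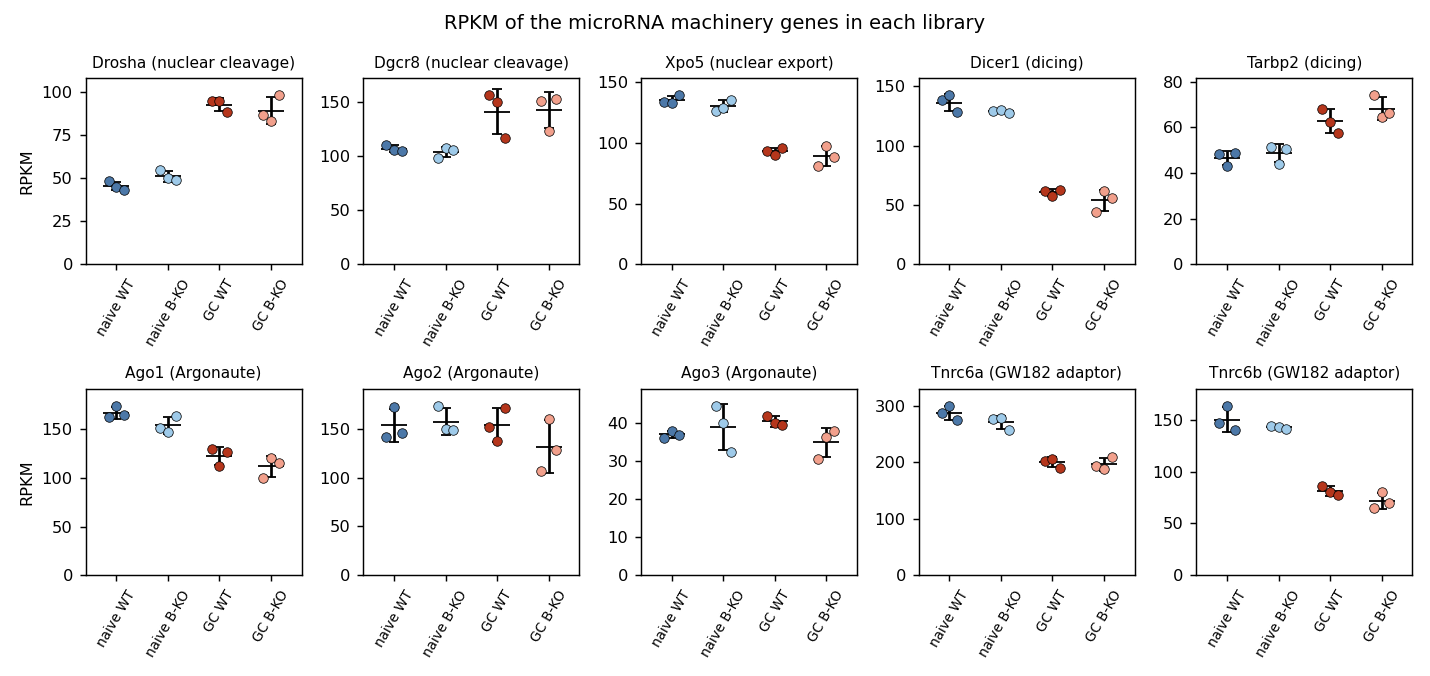
RPKM (y axis, from 0, one scale per gene) of each machinery gene in the 12 libraries; points are libraries, the bar is the group mean and the whisker 1 SD over 3 libraries. Drosha sits at 43.5 to 55.0 in the naive and 83.3 to 98.3 in the GC libraries, and Dicer1 at 128 to 142 and 44.5 to 62.8, with no overlap between the cell types.

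Drosha, the nuclease of the nuclear step, rose most among the members. Its RPKM was 48.3, 44.9 and 43.5 in the 3 naive WT libraries and 94.8, 95.1 and 88.6 in the GC WT libraries. In B-KO mice it was 55.0, 50.3 and 48.9 in naive and 86.7, 83.3 and 98.3 in GC libraries. Every GC library was above every naive library in both genotypes. The change was 2.02-fold in WT mice (log2 1.01, SE 0.09, adjusted p = 4.94e-06 by limma) and 1.72-fold in B-KO mice (log2 0.79, SE 0.09, adjusted p = 3.85e-05 by limma). Of all genes tested, 87% had a lower log2 change than Drosha in WT mice.

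Dgcr8, which holds the hairpin for Drosha, rose less and varied more. RPKM was 111, 106 and 105 in naive WT and 157, 150 and 117 in GC WT libraries, and 98.7, 108 and 106 in naive B-KO and 152, 124 and 153 in GC B-KO libraries. The naive and GC ranges did not overlap, but 1 GC library in each genotype lay well below the other two. These are WT replicate 3 and B-KO replicate 2, the GC libraries with the lowest cell cycle sums. The change was 1.31-fold in WT mice (log2 0.38, SE 0.11, adjusted p = 0.0122 by limma) and 1.36-fold in B-KO mice (log2 0.45, adjusted p = 0.00597). The WT call was lost without GC WT replicate 1 (log2 0.31, adjusted p = 0.0549).

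Reads were counted on both strands, and 19.1% of the exon bases of the counted Dgcr8 transcript lie opposite exons of Trmt2a, a tRNA methyltransferase gene, so their reads cannot be told apart there. A further 7.6% are shared with Gm49776 on the same strand. Trmt2a itself changed by a log2 of 0.08 in WT (adjusted p = 0.268) and 0.13 in B-KO mice (adjusted p = 0.0809), and stood at 286 to 299 RPKM in the naive WT libraries. The Dgcr8 transcript also carries the hairpin of Mir1306, one of the hairpins through which the nuclear complex is known to cut Dgcr8 mRNA. The row of that hairpin held 16 to 50 reads per library.

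Xpo5, the export factor, fell. Its RPKM was 134, 133 and 139 in naive WT and 93.8, 89.8 and 95.7 in GC WT libraries, and 127, 129 and 136 in naive B-KO and 81.2, 97.9 and 88.2 in GC B-KO libraries. All GC libraries were below all naive libraries. The change was 0.69-fold in WT (log2 -0.54, SE 0.07, adjusted p = 9.96e-05 by limma) and 0.68-fold in B-KO mice (log2 -0.55, adjusted p = 0.000118).

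Dicer1, the cytoplasmic nuclease, fell most. The naive WT libraries held 138, 142 and 128 RPKM and the GC WT libraries 61.8, 57.5 and 62.8. The naive B-KO libraries held 129, 130 and 128 and the GC B-KO libraries 44.5, 61.6 and 56.0. The lowest naive library, at 128 RPKM, was far above the highest GC library, at 62.8. The level in GC B cells was 0.45-fold that in naive B cells in WT (log2 -1.15, SE 0.11, adjusted p = 7.07e-06 by limma) and 0.42-fold in B-KO mice (log2 -1.25, SE 0.11, adjusted p = 1.20e-05 by limma). Only 10% of all genes tested had a lower log2 change in WT and 6.73% in B-KO mice.

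Tarbp2, one of the double-stranded RNA-binding partners of Dicer, rose while Dicer1 fell. Its RPKM was 48.3, 43.1 and 48.7 in naive WT and 68.0, 62.5 and 57.7 in GC WT libraries, and 51.6, 44.1 and 50.6 in naive B-KO and 74.0, 64.5 and 66.1 in GC B-KO libraries. The ranges did not overlap. The changes were 1.33-fold (log2 0.42, SE 0.10, adjusted p = 0.00409 by limma) and 1.39-fold (log2 0.48, SE 0.10, adjusted p = 0.00209 by limma).

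Prkra, which encodes PACT, the other such partner of Dicer, moved the opposite way from Tarbp2. RPKM was 21.03, 18.98 and 24.63 in naive WT libraries and 2.81, 4.23 and 3.84 in GC WT libraries, from 15 to 119 reads a library. In B-KO mice it was 17.1, 21.3 and 13.3 in naive and 6.70, 5.96 and 5.63 in GC libraries. The log2 change was -2.29 in WT (SE 0.20, adjusted p = 5.10e-06 by limma) and -1.34 in B-KO mice (SE 0.20, adjusted p = 0.000212 by limma). Prkra had the lower level of the pair in every library.

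**Figure D2:**
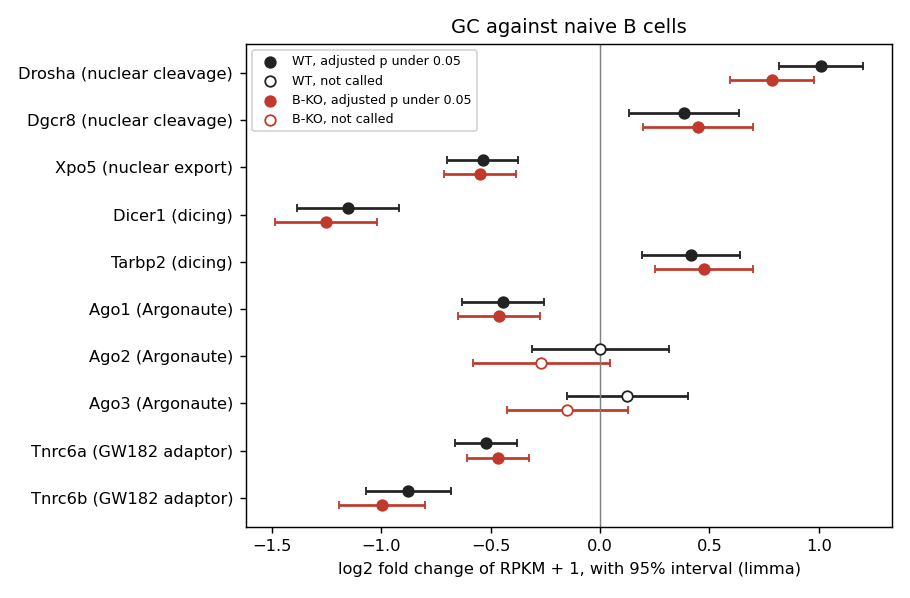
log2 fold change of RPKM + 1 between GC and naive B cells (x axis) for each gene in WT (black) and B-KO mice (red), with 95% limma intervals; filled points passed adjusted p under 0.05. Drosha, Dgcr8 and Tarbp2 lie right of 0 and Xpo5, Dicer1, Ago1, Tnrc6a and Tnrc6b left of it in both genotypes, while the intervals of Ago2 and Ago3 span 0.

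The opposite moves changed the order of the levels. In naive WT B cells Drosha RPKM was 0.315 to 0.349 times that of Dicer1, and in GC WT B cells 1.41 to 1.65 times. In B-KO mice the ratio was 0.383 to 0.425 in naive and 1.35 to 1.95 in GC B cells. Dicer1 was thus the more abundant transcript per length in all 6 naive libraries and Drosha in all 6 GC libraries. Dicer1 over Tarbp2 went from 2.93 ± 0.34 to 0.973 ± 0.101 in WT mice (SD, n = 3) and from 2.66 ± 0.25 to 0.801 ± 0.182 in B-KO mice. Drosha over Dgcr8 was 0.425 ± 0.010 and 0.664 ± 0.079 in WT mice and 0.495 ± 0.054 and 0.628 ± 0.052 in B-KO mice. Any Trmt2a reads counted for Dgcr8, as described above, are part of this ratio.

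**Figure D3:**
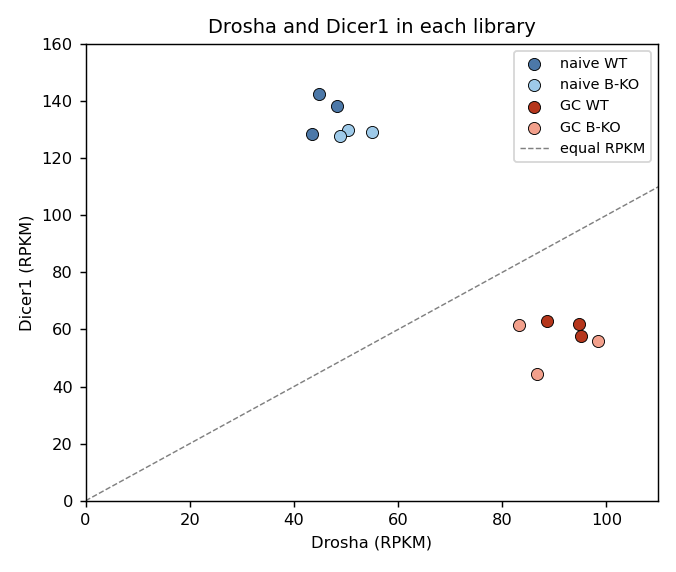
Dicer1 RPKM (y axis) against Drosha RPKM (x axis) in the 12 libraries, colored by group; the dashed line marks equal RPKM. The 6 naive libraries lie above the line, with Drosha over Dicer1 at 0.315 to 0.425, and the 6 GC libraries below it, at 1.35 to 1.95.

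Of the 3 Argonaute members, which hold the guide strand, Ago1 fell and Ago2 and Ago3 did not pass the test. Ago1 RPKM was 163, 174 and 165 in naive WT and 130, 112 and 127 in GC WT libraries, and 152, 147 and 164 in naive B-KO and 100, 121 and 115 in GC B-KO libraries. All GC libraries were below all naive libraries, with changes of 0.74-fold in WT (log2 -0.44, SE 0.08, adjusted p = 0.000921 by limma) and 0.73-fold in B-KO mice (log2 -0.46, adjusted p = 0.000866).

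Ago2, the Argonaute that can itself cut a target, had overlapping ranges in both genotypes. RPKM was 142, 173 and 145.7 in naive WT and 152, 137 and 172 in GC WT libraries. In B-KO mice it was 173, 150 and 148 in naive and 107, 160 and 128 in GC libraries. The log2 change was 0.00 (95% interval -0.31 to 0.32, adjusted p = 0.991 by limma) in WT and -0.27 (-0.58 to 0.05, adjusted p = 0.129) in B-KO mice. The GC B-KO libraries spread most, and without GC B-KO replicate 2 the change was -0.42 and passed the test (adjusted p = 0.0184).

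Ago3 was the lowest of the 10 members in the mean of every group. RPKM was 36.1, 37.9 and 36.7 in naive WT and 41.8, 39.8 and 39.3 in GC WT libraries, ranges that did not overlap, yet the log2 change of 0.12 missed the threshold (95% interval -0.15 to 0.40, adjusted p = 0.411 by limma). In B-KO mice it was 44.4, 40.03 and 32.3 in naive and 30.5, 36.2 and 37.7 in GC libraries (log2 -0.15, adjusted p = 0.326). The WT comparison thus had 4 members with all GC libraries above all naive ones and 5 below, where 34.2% and 33.1% of all genes tested did so. In B-KO mice 3 members were above and 5 below, against 33.4% and 30.7%. The limma test of Ago3 drew its spread from all 4 groups. The SD of Ago3 was 0.91 and 1.34 RPKM in the naive and GC WT libraries, and 6.12 and 3.81 in the B-KO ones.

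Ago4, the remaining family member, was lower in GC than in naive B cells of WT mice, 19.6 against 25.3 RPKM (log2 -0.36, adjusted p = 0.0414 by limma), and missed the threshold in B-KO mice (log2 -0.33, adjusted p = 0.0644). With Ago4 added, the Argonaute transcripts summed to 383 ± 24 RPKM in naive WT and 336 ± 26 in GC WT libraries (SD, n = 3). Ago1 took 43.7 ± 1.2% of that sum in naive and 36.6 ± 1.1% in GC WT libraries, and Ago2 39.99 ± 1.77% and 45.6 ± 2.0%. In WT mice the highest mean was that of Ago1 in naive and of Ago2 in GC B cells, and the ranges of the pair overlapped in the naive but not in the GC libraries. In B-KO mice the Ago1 share was 41.1 ± 2.9% and 37.6 ± 1.7%, and the Ago2 share 41.8 ± 2.0% and 43.9 ± 3.3%.

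The GW182 adaptors fell. Tnrc6a was the most abundant member in all groups, at 286, 299 and 274 RPKM in naive WT and 203, 206 and 189 in GC WT libraries. In B-KO mice it stood at 277, 278 and 258 in naive and 193, 187 and 208 in GC libraries. The ranges did not overlap, and the changes were 0.70-fold (log2 -0.52, SE 0.06, adjusted p = 4.37e-05 by limma) and 0.72-fold (log2 -0.46, SE 0.06, adjusted p = 0.000134 by limma).

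Tnrc6b fell further. Its RPKM was 147, 164 and 140 in naive WT and 86.2, 80.9 and 77.1 in GC WT libraries, and 144, 144 and 141 in naive B-KO and 64.8, 80.0 and 69.6 in GC B-KO libraries. The changes were 0.54-fold (log2 -0.88, SE 0.09, adjusted p = 1.22e-05 by limma) and 0.50-fold (log2 -0.996, SE 0.09, adjusted p = 1.34e-05 by limma). Tnrc6c, the remaining paralog, fell alike, from 145 to 165 RPKM in naive WT to 76.8 to 92.1 in GC WT libraries (log2 -0.86, adjusted p = 8.05e-06). The sum of the 3 adaptors was 591 ± 34 RPKM in naive WT and 365 ± 7 in GC WT libraries, and 564 ± 13 and 353 ± 10 in B-KO mice. Tnrc6a took 48.5 ± 0.7% of the sum in naive and 54.6 ± 1.9% in GC WT libraries.

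**Figure D4:**
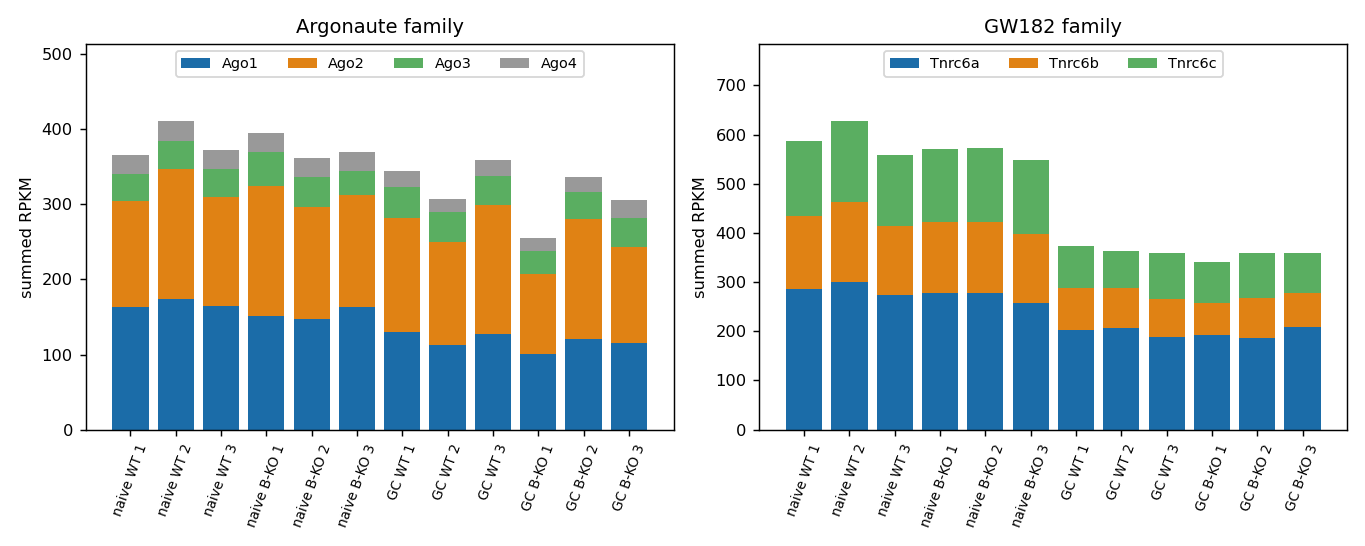
Summed RPKM (y axis, from 0) of the Argonaute genes (left) and GW182 genes (right) in each of the 12 libraries, stacked by gene. The GW182 sum is 549 to 627 in the naive and 341 to 373 in the GC libraries, while the Argonaute sum is 362 to 411 and 255 to 358.

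The order of levels differed between the cell types. In naive WT B cells Tnrc6a was followed by Ago1, Ago2, Tnrc6b, Dicer1 and Xpo5, whose neighbours overlapped in range, then by Dgcr8, Tarbp2, Drosha and Ago3. Tarbp2 and Drosha overlapped. In GC WT B cells the order was Tnrc6a, Ago2, Dgcr8, Ago1, Xpo5, Drosha, Tnrc6b, Tarbp2, Dicer1 and Ago3, in which Ago2 and Dgcr8, Dgcr8 and Ago1, Xpo5 and Drosha, and Tarbp2 and Dicer1 overlapped. Dgcr8 thus moved from rank 7 to rank 3 and Dicer1 from rank 5 to rank 9. The Dgcr8 level behind its ranks includes any reads of Trmt2a from the exons that lie opposite, as described above.

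The sequence before the start of each gene was compared for 4 motifs on both strands. These were CACGTG, the E-box, CCAAT, the CCAAT box bound by NF-Y, a factor known at promoters of cell cycle genes, GGGCGG, the GC box, and CCGGAAG, an ETS core. RefSeq promoter sequences matched 9 of the 10 members, all but Ago2, and the 250 bases before the start were searched. Drosha and Tarbp2 each held 3 CCAAT boxes and Dgcr8 held 4, Dicer1 and Ago1 held 1 each, and Xpo5, Ago3, Tnrc6a and Tnrc6b held 0. Of 32851 RefSeq promoters, taken whether or not their genes were tested here, 33.8% held at least 1 and 2.79% held 3 or more. The share over tested genes alone was not computed. The 3 members with 3 or more were those that rose, while Dicer1 and Ago1, with 1 each, fell. This describes 9 genes, with motifs chosen when earlier results of these data were known. No test was applied, and any part of NF-Y in the changes was not tested.

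The 4 promoters are printed with every motif match in capitals, on GRCm38.p6 and on the strand of the gene, so that the letters can be compared between the nuclear and the dicing step. In Drosha the ETS core, on the opposite strand, runs straight into a CCAAT box on the opposite strand, and in Tarbp2 a pair of GC boxes share a base.
Drosha, chr15:12824565-12824814, plus strand: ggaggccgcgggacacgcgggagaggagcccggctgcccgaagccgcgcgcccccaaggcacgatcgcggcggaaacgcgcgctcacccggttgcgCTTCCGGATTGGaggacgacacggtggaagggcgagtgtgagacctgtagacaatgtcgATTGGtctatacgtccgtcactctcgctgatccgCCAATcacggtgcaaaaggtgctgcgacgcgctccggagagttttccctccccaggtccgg
Dgcr8, chr16:18289169-18289418, minus strand: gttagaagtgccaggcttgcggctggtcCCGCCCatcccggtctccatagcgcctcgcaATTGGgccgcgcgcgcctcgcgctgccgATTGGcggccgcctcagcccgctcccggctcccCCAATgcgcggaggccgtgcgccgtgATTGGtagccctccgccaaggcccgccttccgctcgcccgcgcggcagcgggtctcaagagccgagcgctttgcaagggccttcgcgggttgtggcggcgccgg
Tarbp2, chr15:102517942-102518191, plus strand: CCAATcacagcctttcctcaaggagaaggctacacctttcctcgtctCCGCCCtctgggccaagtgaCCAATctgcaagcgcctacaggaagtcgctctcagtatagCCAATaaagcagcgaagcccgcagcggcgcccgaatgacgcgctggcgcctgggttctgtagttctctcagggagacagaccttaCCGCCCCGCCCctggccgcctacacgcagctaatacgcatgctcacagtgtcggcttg
Dicer1, chr12:104751953-104752202, minus strand: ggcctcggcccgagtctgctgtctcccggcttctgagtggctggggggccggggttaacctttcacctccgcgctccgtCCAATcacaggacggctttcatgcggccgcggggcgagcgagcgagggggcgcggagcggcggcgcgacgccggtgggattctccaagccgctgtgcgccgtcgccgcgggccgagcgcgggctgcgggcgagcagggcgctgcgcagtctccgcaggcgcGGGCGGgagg

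The other motifs were counted over the same members. The GC box was found in 32.7% of promoters, and 4 matches were in Ago3, 3 in Tarbp2, 2 in Ago1 and 1 each in Dgcr8, Xpo5 and Dicer1. The ETS core, in 6.91% of promoters, matched in Drosha and Ago3, and the E-box, in 6.02%, in Tnrc6b alone. The RefSeq start is the start of the counted transcript for these genes, except that it lies 44 bases away in Xpo5 and 162 in Ago1.

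Other genes of the pathway were also counted in the WT comparison of GC with naive B cells. There 31.7% of all genes tested were called higher and 30.2% lower, and in B-KO mice 30% and 27.5%. These shares are the background for each list below, and calls in both directions are common. Of 23 tested genes that assist microRNA production or Argonaute function, 10 rose, 8 fell and 5 were not called in WT mice. Ran, the GTPase that powers export, rose from 180 to 536 RPKM (log2 1.55, adjusted p = 1.07e-05 by limma), and Fmr1, an RNA-binding protein that meets Argonaute on mRNAs, from 172 to 324 (log2 0.91, adjusted p = 1.63e-05). Prkra and Tnrc6c fell, as above. In B-KO mice 10 of these genes rose and 7 fell.

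Of 20 genes for shortening or binding the poly(A) tail, which act after GW182, 9 rose, 2 fell and 9 were not called. Cnot6, a catalytic subunit of the CCR4-NOT complex, went from 222 to 411 RPKM (log2 0.88, adjusted p = 3.24e-05 by limma) and Rqcd1, another subunit, from 105 to 232 (log2 1.12, adjusted p = 4.49e-05). Pabpc4, a poly(A)-binding protein, went from 40.4 to 85.0 RPKM (log2 1.06, adjusted p = 4.35e-05), and the more abundant Pabpc1 from 946 to 1616 (log2 0.78, adjusted p = 8.76e-05). In B-KO mice 9 rose and 3 fell.

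Of 19 genes for decapping and 5′ decay, 11 rose, 5 fell and 3 were not called. Those that fell were Dcp1b, Edc4, Ddx6, Xrn1 and Xrn2, with log2 changes of -0.37, -0.18, -0.16, -0.28 and -0.26. Eif4enif1, which links silenced mRNAs to the cap-binding protein, went from 216 to 375 RPKM (log2 0.79, adjusted p = 3.50e-06 by limma), and Lsm14a, a P-body protein, from 507 to 883 (log2 0.80, adjusted p = 4.12e-06). Lsm4 (456 to 931 RPKM, log2 1.02) and Lsm2 (108 to 288, log2 1.39) also rose, and both belong to the LSM rings that serve decay in the cytoplasm and splicing in the nucleus. In B-KO mice 10 rose and 4 fell. The median log2 change in WT and B-KO mice was -0.02 and 0.04 in the list of other microRNA genes, 0.20 and 0.10 in the tail-shortening list and 0.39 and 0.33 in the decapping list, beside 0.0054 and 0.015 over all genes tested.

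Transcripts of the germline PIWI pathway, whose proteins are relatives of the Argonautes, were near or at 0. Of 9 genes, 3 were at 0 in all 12 libraries and 2 passed the filter. Piwil2 was at 1.24 to 1.59 RPKM in naive WT and 3.71 to 6.52 in GC WT libraries, from 19 to 110 reads (log2 1.39, adjusted p = 0.000546 by limma). Of 2 tested host transcripts of microRNA clusters, Mir17hg, which carries the cluster named after miR-17, fell from 140 to 72.9 RPKM in WT mice (log2 -0.95, adjusted p = 0.00697) and the other was not called. These are transcripts of the hosts, and mature microRNAs were not measured. All 20 cell cycle genes rose in both genotypes.

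The comparison of B-KO with WT mice asks whether the machinery itself differed once B cells lacked miR-146a. None of the 10 members passed the same test in naive or in GC B cells. The background was as low, with 0.0146% of genes called in naive B cells (2 genes), 0.0073% in GC B cells (1 gene) and 0.0219% (3 genes) for the difference of the genotype effect between them. At an unadjusted p under 0.05 by limma the members gave 0 calls in each of the 3 comparisons. Of all genes 624 (4.55%), 776 (5.66%) and 462 (3.37%) did, and at such shares 0 of 10 members does not set them apart. By limma voom on the recovered reads, 0 members were called too. Over the members the 95% intervals of the log2 effect ran from -0.31 to 0.36 in naive and from -0.55 to 0.34 in GC B cells, the widest being those of Ago2.

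**Figure D5:**
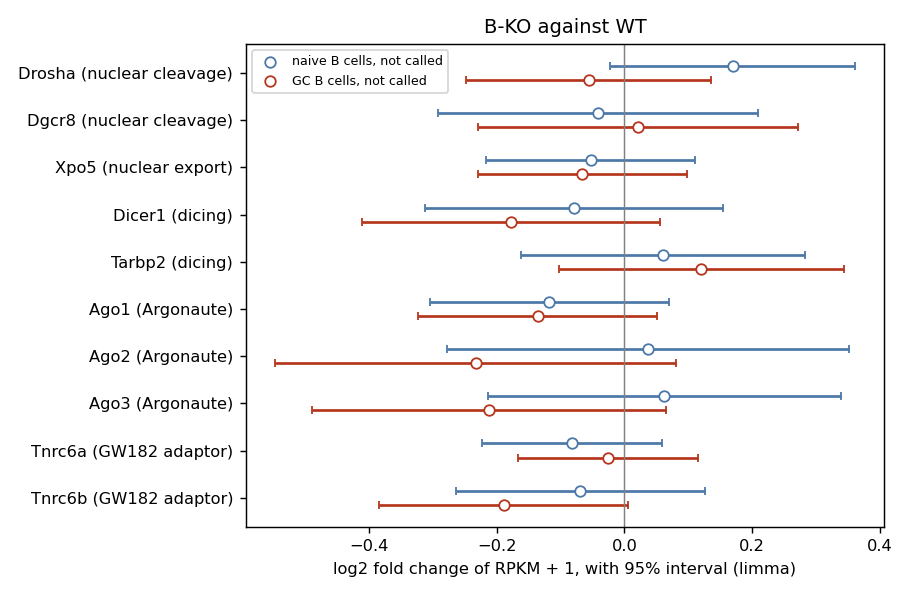
log2 fold change of RPKM + 1 between B-KO and WT mice (x axis) for each gene in naive (blue) and GC B cells (red), with 95% limma intervals; open points did not pass the test. Every interval includes 0, the Drosha estimate in naive B cells being 0.17 and the Tnrc6b estimate in GC B cells -0.19.

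In naive B cells Drosha alone had ranges that did not overlap, at 48.9 to 55.0 RPKM in B-KO and 43.5 to 48.3 in WT libraries (log2 0.17, 95% interval -0.02 to 0.36, adjusted p = 1 by limma). Over all genes 6.3% lay wholly higher and 3.08% wholly lower in B-KO libraries. The highest Drosha value was that of naive B-KO replicate 1, which also had the highest sum of GC markers, 1497, and of cell cycle genes, 3410, and without it the log2 effect was 0.12. The naive B-KO libraries also summed wholly higher in the erythroid and platelet genes (1352 to 2432 RPKM against 831 to 1045), in the plasma cell genes (1334 to 4050 against 485 to 1106) and in the myeloid genes (140 to 441 against 82.3 to 137), whose part in this difference was not tested. The difference between the Drosha effects in GC and naive B cells was -0.23 (95% interval -0.50 to 0.05, adjusted p = 0.9999 by limma).

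In GC B cells 8 of the 10 estimates were below 0, where 58.5% of all genes were above it, with a median of -0.10 beside 0.03 over all genes. The all-gene median depended on the scaling, and was 0.0025 with median-of-ratios scaling. Ago3 alone had separate ranges, 30.5 to 37.7 RPKM in B-KO and 39.3 to 41.8 in WT libraries (log2 -0.21, 95% interval -0.49 to 0.06, adjusted p = 0.896 by limma), where 6.08% of genes lay wholly higher and 3.21% wholly lower. Tnrc6b had the lowest adjusted p of the members, at 64.8 to 80.0 against 77.1 to 86.2 RPKM (log2 -0.19, 95% interval -0.38 to 0.01, adjusted p = 0.885 by limma). The effects of Dicer1 and Ago2 were -0.18 and -0.23, and both rested on single libraries: they were -0.05 and -0.09 without GC B-KO replicate 1 and -0.28 and -0.38 without GC B-KO replicate 2.

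The 5 members with a match to the miR-146 seed had no called effect in B-KO GC B cells. Their log2 effects were -0.14 for Ago1, -0.23 for Ago2, -0.21 for Ago3, -0.03 for Tnrc6a and -0.19 for Tnrc6b. With single libraries left out, the Ago1 effect ran from -0.20 (without GC WT replicate 2) to -0.06 (without GC B-KO replicate 1), and that of Tnrc6a turned to 0.0069 without GC B-KO replicate 2. Those of the members without a match were -0.06 for Drosha, 0.02 for Dgcr8, -0.07 for Xpo5, -0.18 for Dicer1 and 0.12 for Tarbp2. In naive B cells the effects of the members with a match were -0.12, 0.04, 0.06, -0.08 and -0.07 in the same order. Protein levels were not measured.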

How the data were processed

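Poly-A RNA of 12 libraries was sequenced, and the labels name total RNA. The authors aligned reads with STAR 2.2.0c and deposited RPKM per RefSeq transcript, computed with HOMER (version not stated) from exon reads on both strands. The reads, not the RPKM values, were scaled to sum to 10000000 per library over all transcripts, and the filter and pseudocounts are in these units. The header names mm10, and the processing notes mm9 and mm10. Whole reads, recovered from RPKM and length, were whole within 0.1 for 100% of the values checked. Genes that reached an RPKM of 1 in 3 or more libraries (13704 of 24063 symbols, from 33072 transcripts) were fitted with limma 3.58.1 in R 4.3.3 as 4 group means of log2(RPKM + 1), with eBayes trend and 8 residual degrees of freedom, after tests on simulated data. All members are named, and at most 4 genes per pathway list, those with the lowest p among the genes called in WT GC against naive B cells. Ago4, Trmt2a, Mir1306 and the decapping and decay genes that fell were named outside this rule, after their values were seen. Members, lists and motifs were chosen with earlier results of these data known. Seed matches were read in the annotated 3′ UTRs of GENCODE M21, and promoters from RefSeq. The alternatives were pseudocounts of 0.1 and 5, other filters, scalings and transcripts, array weights, limma voom on recovered reads, a replicate block, only the groups compared, and each library left out.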

Additional observations from a re-analysis of the deposited data

How the results depend on the processing

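The 3 higher and 5 lower members of the GC comparisons were counted alike under the 13 alternatives in WT mice, and in B-KO mice under all but those in which Ago2 passed, where 6 were lower. With each library left out, the higher count was 2 to 3 in WT mice, the lower one being without GC WT replicate 1, where Dgcr8 missed the threshold (0.31, adjusted p = 0.0549 by limma). Ago2 in B-KO mice passed with array quality weights (-0.30, adjusted p = 0.0424), without GC B-KO replicate 2 (-0.42, adjusted p = 0.0184) and without the 3 libraries nearest the other cell type (-0.34, adjusted p = 0.0349). That last setting, chosen after seeing the data, left out naive B-KO replicate 1, GC WT replicate 3 and GC B-KO replicate 2. The cause was not tested. No member was called between genotypes in any alternative.

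Estimates near 0 changed sign, none of them past the threshold. Ago2 between GC and naive WT B cells was -0.0932 with quantile normalization, -0.0218 with array weights, -0.0305 with limma voom, -0.0807 without the 3 libraries, and -0.0807 to 0.0892 with single libraries left out. Between genotypes in naive B cells, Tarbp2 was -0.001 with quantile normalization and -0.0383 with array weights. With single libraries left out, Ago2 ran from -0.0352 (without naive B-KO replicate 1) to 0.1238 and Ago3 from -0.0363 (without the same library) to 0.1872, and without the 3 libraries they were -0.0352 and -0.0363. In GC B cells, Dgcr8 was -0.0092 with median-of-ratios scaling, -9e-04 with quantile normalization, -0.0484 with array weights, -0.0077 without the 3 libraries, and -0.1066 to 0.1197 with single libraries left out, and Tnrc6a ran from -0.0701 to 0.0069, the latter without GC B-KO replicate 2.

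Over all genes, calls between genotypes were few and moved with the setting. In naive B cells 2 genes were higher, 76 with array weights, 24 without naive B-KO replicate 3 and 0 by voom. With every transcript tested as a row of its own, 6388 rows were lower in GC WT B cells, against 4143 genes. With a replicate block, the genes higher in GC WT B cells numbered 4164 against 4348, and the block gave the members 3 higher and 5 lower calls in each genotype, as without it. Same-numbered libraries did not deviate together, with correlations of -0.565 to 0.062 over 12 pairs, of which 2 correlated best with their own number. With 3 libraries in a group this cannot settle whether the numbers pair mice or batches, and the labels do not state it.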
